A study of Homo sapiens with 9 samples.

Results

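The MYC, MAX and MXD network was described here by 9 genes: MYC, MYCN, MYCL, MAX, MXD1, MXD3, MXD4, MXI1 and MNT. They are the rows of the deposited expression table with these symbols. Each symbol had 1 row among the 63856 genes listed, and all 9 were among the 18452 genes with enough reads to be tested.

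The RNA came from TCam-2, a line established from a human testicular seminoma, a germ cell tumour. Groups named WT, NC and ESX1 were sequenced, with n = 3 biological replicates in each. WT cells were unmodified. NC cells, the negative control, had been transfected with the px335_G2P vector carrying gRNAs that match no human sequence. ESX1 cells had received px335_G2P vectors with gRNAs against the start region of ESX1, a homeobox gene of the X chromosome, together with PB-TRE-dCas9-VPR. This vector holds a Cas9 that cannot cut, fused to the VPR activator and driven by a doxycycline-inducible promoter, so that the gRNAs raise transcription of the endogenous gene (CRISPRa). Transfected cells went through puromycin selection and doxycycline induction and were collected at 72 h. In NC and ESX1 not every cell carried the vector's GFP, so each of these libraries is a mixture. The methods do not state whether WT cells received the drugs or NC cells the dCas9-VPR vector, so transfection, vector and drugs cannot be told apart in NC against WT.

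MYC, MYCN and MYCL encode transcription factors that bind DNA only as a pair with MAX, at a short sequence called the E-box (CACGTG, or CANNTG in its general form), and drive genes of growth, ribosome production and metabolism. The MXD proteins, MXI1 among them, and MNT compete for the same partner and the same sites. They bring the SIN3 corepressor and its histone deacetylases. MYCN is known from early embryonic and germ line cells, MYC from most dividing cells, and MXD1 from cells that leave the cycle and differentiate.

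The libraries held between 5212804 counts (ESX1 3) and 10644408 counts (WT 3). ESX1 itself was measured at 3.60, 4.08 and 3.13 normalized CPM (counts scaled to library size) in WT, 3.63, 2.89 and 3.46 in NC, and 57.0, 55.7 and 31.4 in ESX1 cells, which were 14.5-fold above NC (adjusted p = 4.48e-08). The 10 seminoma markers fixed for the check, among them POU5F1, SOX17 and KIT, all had counts in every library. Their summed level ran from 3874 to 4715 CPM in WT, 2829 to 3017 in NC and 1557 to 1900 in ESX1. Immune markers summed to at most 1.29 CPM in any library, with CD3E and LYZ at 0, and 6 fibroblast markers to 109 to 338 CPM. Most of the fibroblast sum was COL1A2, at 244 ± 82.0 CPM in WT, 131 ± 16.4 in NC and 131 ± 56.7 in ESX1. COL1A1 was at 3.64 ± 1.79, 17.0 ± 2.60 and 17.7 ± 10.5 CPM, and COL3A1, DCN, LUM and PDGFRB were too low to be tested. SOX2, which seminoma cells lack, was at 1.88 to 11.8 CPM. ESX1 2 stood apart within its group. The 9 interferon-induced genes checked summed to 99.99 to 121 CPM in WT and 704 to 709 in NC, but to 126 and 133 in ESX1 1 and ESX1 3 against 726 in ESX1 2. Values without ESX1 2 are therefore given where they differ.

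Between ESX1 and NC, no gene of the network was called, where a call needed both a 2-fold difference and an adjusted p under 0.05 (edgeR quasi-likelihood test, Benjamini-Hochberg adjustment over all genes tested). The background was 1.78% of the genes tested, 1.08% called higher and 0.699% called lower. None of the 9 passed an unadjusted p of 0.05 either, and DESeq2 and limma also called 0. At that unadjusted p, 7 of the 9 passed in ESX1 against WT and 4 in NC against WT by edgeR. The share of all genes tested at that unadjusted p was not counted. Against WT, 2 of 9 were called in ESX1 cells, beside a background of 11.5%. MYCL fell and MXD1 rose. The same pair, MYCL and MXD1, was called in NC against WT in the same directions, beside a background of 5.27%, but limma on the authors' log2 values called neither there (MYCL at -0.99 and MXD1 at 0.94). These last comparisons share the WT libraries. With no minimum fold, 4 of 9 passed in ESX1 against WT (background 28.8%) and 4 of 9 in NC against WT (17.1%), but 0 of 9 in ESX1 against NC (4.25%, 1.88% higher and 2.37% lower). In ESX1 against WT MXD1, MXI1 and MNT were the higher ones (background 12.9%) and MYCL the lower (15.8%). In NC against WT MXD1 and MNT were higher (6.82%), and MYCL and MYCN lower (10.3%). The median log2 fold change of the 9 genes was 0.22 in ESX1 against NC, 0.26 in ESX1 against WT and 0.01 in NC against WT, while the median over all genes tested lay within 0.01 of 0 in each. In bulk RNA, fewer cells expressing a gene and less RNA per cell cannot be told apart.

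MYCN (ENSG00000134323.11, GRCh38 chr2:15940564-15947007, plus strand) was the most highly expressed of the MYC genes in every library when counted per length. It was at 28.4, 32.1 and 40.3 CPM in WT, 24.0, 19.8 and 20.46 in NC, and 29.3, 24.0 and 21.1 in ESX1. All NC libraries lay below all WT libraries, whereas the ESX1 libraries spanned the gap and overlapped both. MYCN fell in NC against WT by 0.65 on the log2 scale (SE 0.173, adjusted p = 0.0155), less than 2-fold. In ESX1 against WT the log2 fold change was -0.43 (adjusted p = 0.0713), and against NC it was 0.22, with a 95% interval from -0.15 to 0.59 (adjusted p = 0.608). The NC decrease no longer passed without WT 3 (log2 fold change -0.49, adjusted p = 0.0928), without NC 2 (-0.58, 0.0798) or without NC 3 (-0.60, 0.0765). ESX1 against WT passed without WT 1 (-0.54, adjusted p = 0.0339) or without ESX1 1 (-0.57, 0.0323). The antisense gene MYCNOS shares none of its exon bases with MYCN and had 1 to 20 counts.

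MYCL (ENSG00000116990.10, chr1:39895426-39902256, minus strand), the third of the MYC paralogues and first known from amplification in small cell lung cancer, varied most of the 9 genes among the WT libraries. Its level was 16.8, 31.5 and 55.0 CPM in WT, 14, 13.2 and 14.2 in NC, and 14.6, 12.2 and 12 in ESX1. Every transfected library was below every WT library, but WT 1 lay close to them and WT 3 far above. MYCL fell by 1.41 on the log2 scale in ESX1 against WT (SE 0.293, adjusted p = 0.00163), a 2.66-fold decrease, and by 1.32 in NC against WT (SE 0.288, adjusted p = 0.00451), a 2.50-fold decrease. Between ESX1 and NC the log2 fold change was -0.09, with a 95% interval from -0.72 to 0.54. The size of the decrease rested on WT 3. Without it, the log2 fold change was -0.88 in ESX1 (adjusted p = 0.0112) and -0.79 in NC (adjusted p = 0.0338), so that both passed the p threshold but neither reached 2-fold. The pseudogenes MYCLP1 and MYCLP2 had at most 10 and 0 counts in any library.

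MYC (ENSG00000136997.16, chr8:127735434-127741434, plus strand), the founding gene of the family, was measured at 14.8, 9.62 and 9.51 CPM in WT, 14.9, 12.5 and 12.6 in NC, and 21.8, 15.8 and 13.5 in ESX1. The highest value was in ESX1 1, and the groups overlapped in every comparison, with WT 1 close to NC 1 and above ESX1 3, and ESX1 3 below NC 1. The log2 fold change was 0.36 in ESX1 against NC (SE 0.220, 95% interval -0.10 to 0.82, adjusted p = 0.460) and 0.23 in NC against WT (adjusted p = 0.511). In ESX1 against WT it was 0.60, with an adjusted p of 0.0549, just outside the threshold. This value moved across the threshold with the processing. It passed, among other settings, with DESeq2 (0.61, adjusted p = 0.0423), without WT 1 (0.85, 0.0114) and without ESX1 3 (0.75, 0.0349), but without WT 3 it was 0.48 (0.178).

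**Figure D1:**
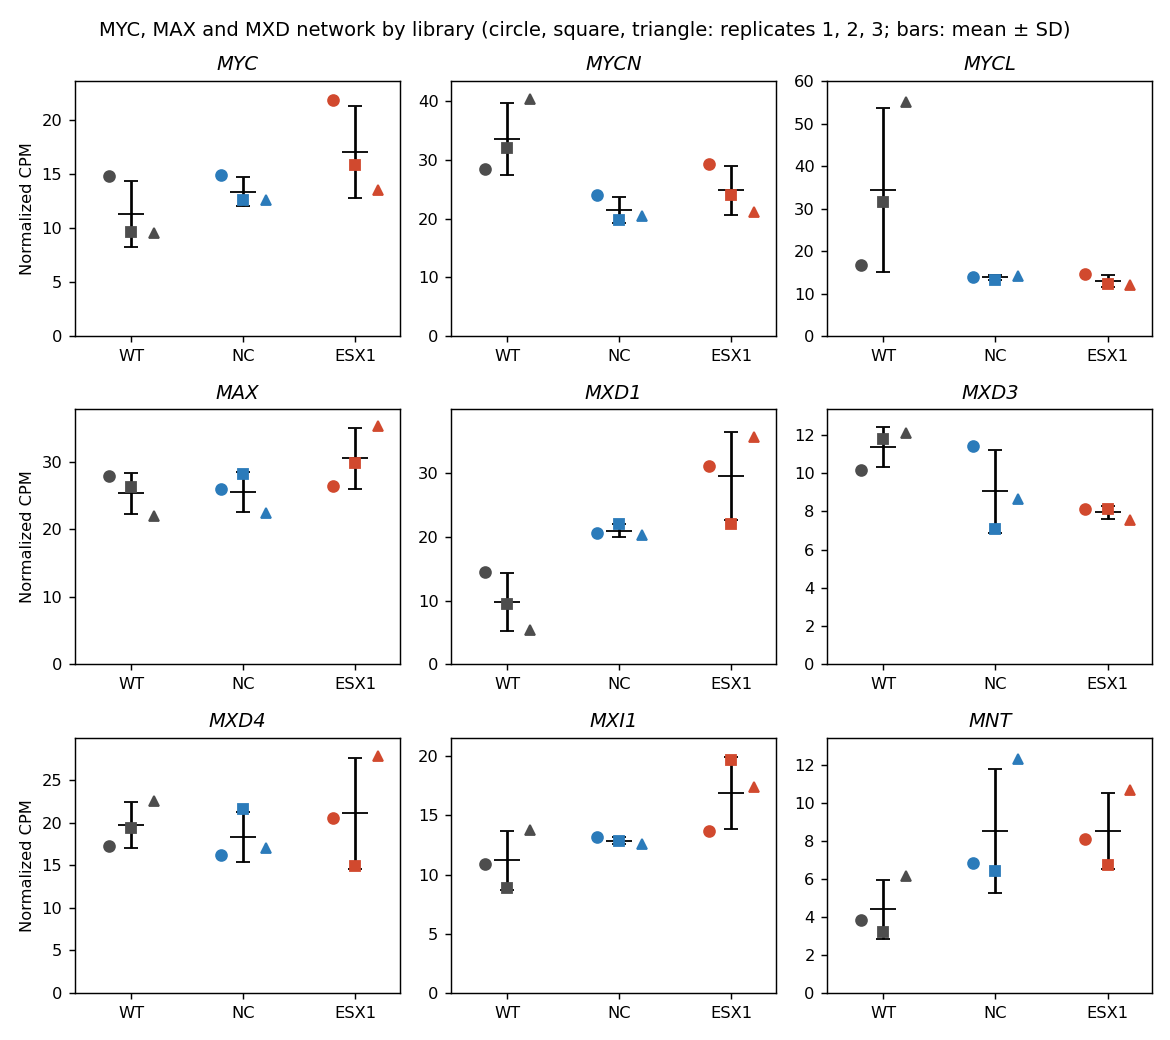
Normalized CPM of each of the 9 network genes in the 3 WT, 3 NC and 3 ESX1 libraries, with the group mean and SD as bars and one panel with its own linear axis from 0 per gene. MYCL ran from 16.8 to 55.0 CPM among the WT libraries and lay at 12 to 14.6 in all transfected ones, while MXD1 was at 5.43 to 14.5 in WT and 20.3 to 35.7 in the transfected libraries.

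MAX (ENSG00000125952.18, chr14:65006174-65102695, minus strand), the partner shared by both arms of the network, was at 27.8, 26.2 and 21.9 CPM in WT, 26, 28.2 and 22.4 in NC, and 26.4, 29.9 and 35.3 in ESX1. The groups overlapped throughout. The log2 fold change was 0.01 in NC against WT (95% interval -0.33 to 0.35), 0.25 in ESX1 against NC (-0.09 to 0.59, adjusted p = 0.499) and 0.26 in ESX1 against WT (-0.08 to 0.60, adjusted p = 0.247). All of these intervals lie inside a 2-fold change in either direction.

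Among the genes that oppose MYC, MXD1 (ENSG00000059728.10, chr2:69897688-69942945, plus strand) differed most. Its level was 14.5, 9.47 and 5.43 CPM in WT, 20.6, 22.1 and 20.3 in NC, and 31.0, 22.0 and 35.7 in ESX1. All transfected libraries lay above all WT libraries. Of the ESX1 libraries, ESX1 2 sat among the NC values and ESX1 1 and ESX1 3 above them. MXD1 rose 2.99-fold in ESX1 against WT (log2 fold change 1.58, SE 0.264, adjusted p = 0.000264) and 2.14-fold in NC against WT (1.10, SE 0.264, adjusted p = 0.00852). Between ESX1 and NC the log2 fold change was 0.49, with a 95% interval from -0.04 to 1.01 (adjusted p = 0.360), and 0.66 without ESX1 2 (adjusted p = 0.181). Without WT 3, the lowest library, the log2 fold changes were 1.28 in ESX1 (adjusted p = 0.000716) and 0.79 in NC (adjusted p = 0.0338), the last under 2-fold. Counting did not use strand. SNRNP27, a splicing factor gene on the same strand as MXD1, shares 3.73% of the exon bases of MXD1.

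MXD1 was higher in ESX1 1 and ESX1 3, where the interferon-induced genes were low, than in any NC library, where they were high. It was lowest in WT, where they were also low, and within the NC range in ESX1 2, where they were high. The seminoma markers, summed, were lower in NC than in WT and lowest in ESX1. Of the 10, 9 were called lower in ESX1 against WT, beside 4.77% of all genes tested. SOX17 was the exception, at 227 ± 32.0 CPM in WT, 251 ± 4.64 in NC and 245 ± 49.0 in ESX1. In NC against WT 2 of the 10 were called lower, beside 2.15%, and in ESX1 against NC 1, beside 0.699%. With no minimum fold, 8 of the 10 were lower in NC against WT, beside 10.3%, and 7 in ESX1 against NC, beside 2.37%. None was higher in either. What part the interferon-induced genes or the seminoma markers had in the differences of MXD1 and MYCL was not tested.

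MXD1 is the one member called higher, so the stretch before its start site is shown first, followed by those of MXD4 and MNT, the members whose promoter window holds CACGTG. The sequences are from RefSeq on GRCh38.p14, and the windows searched ran from 250 bases before to 50 bases after each start site. Only bases before the start site and outside every exon of the count table's annotation are printed, 5′ to 3′ on the gene's strand. Capitals mark the E-box, CACGTG in MXD4 and MNT and CANNTG in MXD1. Both motifs read the same on either strand, and every CACGTG is also a CANNTG. The stretches lie at chr2:69914859-69915040 (plus strand), chr4:2262295-2262359 (minus strand) and chr17:2401119-2401310 (minus strand).
MXD1: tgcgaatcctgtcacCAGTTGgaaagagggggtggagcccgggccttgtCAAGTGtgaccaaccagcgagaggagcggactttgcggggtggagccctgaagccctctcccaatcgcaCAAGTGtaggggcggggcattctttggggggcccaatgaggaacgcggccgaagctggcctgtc
MXD4: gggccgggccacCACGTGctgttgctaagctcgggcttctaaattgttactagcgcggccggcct
MNT: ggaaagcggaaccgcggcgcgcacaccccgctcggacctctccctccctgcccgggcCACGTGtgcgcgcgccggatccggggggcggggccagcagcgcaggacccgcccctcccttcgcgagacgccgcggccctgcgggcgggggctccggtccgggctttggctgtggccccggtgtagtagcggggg

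The MXD1 stretch holds 3 general E-boxes, which begin 235, 201 and 132 bases before the start site at position 69915109. That site lies inside the longer span given to MXD1 in the count table. The CACGTG begins 238 bases before the start site of MXD4 and 193 before that of MNT. RefSeq gave windows for 8 of the 9 members (MYC had none), 11 windows in all, of which 2 held CACGTG. It occurred in 8.98% of the 16110 windows of genes tested and in 7.26% of all 35116 windows. CANNTG is so short that 68.7% of all windows held it. A match is a run of letters and was not measured as a bound site.

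MNT (ENSG00000070444.14, chr17:2384060-2401118, minus strand), a MAX-binding repressor present in most cell types, had the lowest level of the network per length. It was at 3.82, 3.21 and 6.16 CPM in WT, 6.84, 6.43 and 12.3 in NC, and 8.11, 6.74 and 10.7 in ESX1. All transfected libraries were above all WT libraries, with WT 3 and NC 2 close together. MNT rose by less than 2-fold in ESX1 against WT (log2 fold change 0.91, SE 0.318, adjusted p = 0.0390) and in NC against WT (0.94, SE 0.313, adjusted p = 0.0483). Between ESX1 and NC it was -0.02, with a 95% interval from -0.65 to 0.61. Both increases lost the p threshold without WT 1 (0.81 and 0.83) or WT 2 (0.75 and 0.77), the first also without ESX1 1 (0.94) or ESX1 3 (0.77), and the other also without NC 1 (1.08) or NC 3 (0.59). Both reached 2-fold without WT 3, at 1.24 in ESX1 (adjusted p = 0.0154) and 1.27 in NC (adjusted p = 0.0236). MNT had 22 to 121 counts per library.

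MXI1 (ENSG00000119950.20, chr10:110207605-110287365, plus strand), also known as MXD2, was at 10.9, 8.89 and 13.8 CPM in WT, 13.2, 12.9 and 12.6 in NC, and 13.7, 19.7 and 17.4 in ESX1. It was the single gene of the 9 whose ESX1 and NC libraries did not overlap, beside a background of 22.6% of the genes tested. The ESX1 1 value was only just above NC, and WT 3 was higher than ESX1 1. MXI1 rose in ESX1 against WT (log2 fold change 0.58, SE 0.203, adjusted p = 0.0393), by less than 2-fold. The log2 fold change was 0.39 against NC (95% interval -0.03 to 0.81, adjusted p = 0.360) and 0.19 in NC against WT (adjusted p = 0.556). The rise against WT lost the p threshold without ESX1 2 (0.45, adjusted p = 0.142), without ESX1 3 (0.60, 0.0793), without WT 1 (0.56, 0.0788), without WT 2 (0.45, 0.163) and without NC 1 (0.59, 0.0510), a library of neither group. It was also lost with only the 6 libraries compared (0.60, 0.0659) and with no filter beyond 1 count (0.59, 0.0518).

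MXD3 and MXD4 passed the adjusted p threshold in no comparison. MXD3 (ENSG00000213347.10, chr5:177301461-177312757, minus strand), which is known from proliferating cells, was at 10.2, 11.8 and 12.1 CPM in WT, 11.4, 7.07 and 8.65 in NC, and 8.11, 8.15 and 7.57 in ESX1. All ESX1 libraries were below all WT libraries, and NC spanned both. The log2 fold change was -0.51 in ESX1 against WT (SE 0.221, 95% interval -0.97 to -0.05, adjusted p = 0.0935), -0.18 in ESX1 against NC and -0.33 in NC against WT. The interval, which leaves out 0, is not adjusted for the number of genes tested. The value is uncertain, because 40.4% of the exon bases of MXD3 are shared with RAB24 and PRELID1, and PRELID1 had 166 to 391 counts against 41 to 116 for MXD3. MXD4 (ENSG00000123933.16, chr4:2247432-2262294, minus strand), a further repressor of the family, was at 17.3, 19.4 and 22.6 CPM in WT, 16.3, 21.7 and 17.1 in NC, and 20.6, 14.9 and 27.9 in ESX1. The ESX1 libraries alone covered the range of both control groups, and the log2 fold changes were 0.18 (95% interval -0.26 to 0.63) against NC, 0.08 (-0.37 to 0.52) against WT and -0.11 (-0.55 to 0.34) in NC against WT.

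Counted by libraries that do not overlap, 4 of 9 genes (MYCL, MXD1, MXD3 and MNT) were apart in ESX1 against WT, beside a background of 40.3%, and 4 of 9 (MYCN, MYCL, MXD1 and MNT) in NC against WT, beside 37.6%. Shares near these backgrounds are no result about the network.

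**Figure D2:**
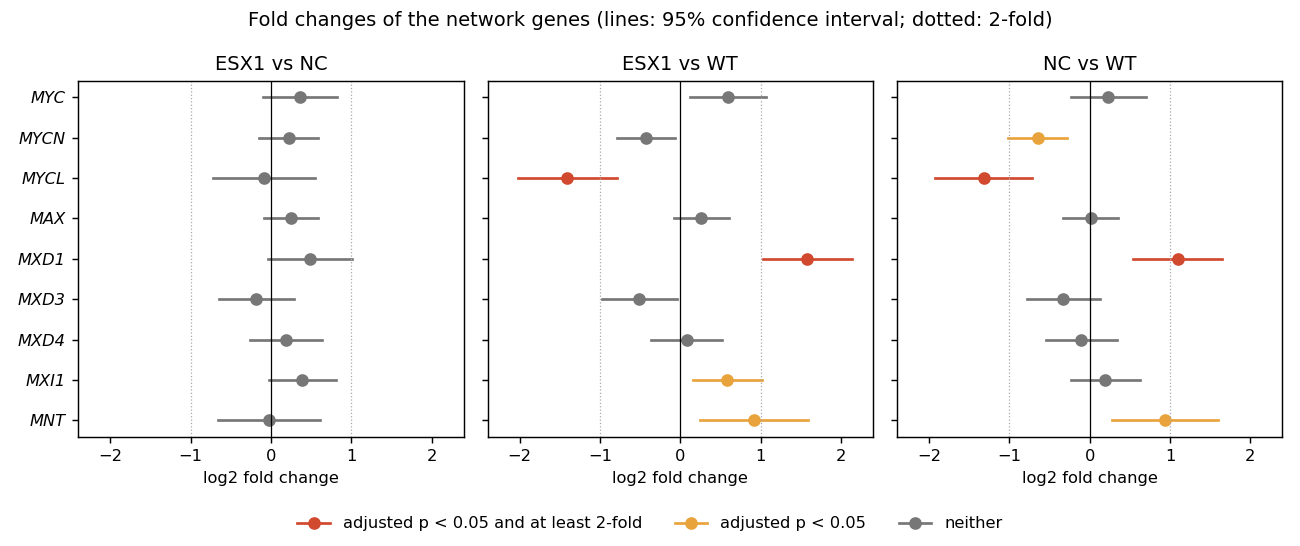
log2 fold change of each of the 9 network genes with its 95% confidence interval in ESX1 against NC, ESX1 against WT and NC against WT, with dotted lines at 2-fold. In ESX1 against NC every interval includes 0, while MYCL (-1.41 and -1.32) and MXD1 (1.58 and 1.10) lie beyond 2-fold in both comparisons with WT.

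On a per-length scale (FPKM, fragments per kilobase of exon, scaled to library depth), MYCN led in each group, at 12.9 ± 2.35 in WT, 8.24 ± 0.875 in NC and 9.53 ± 1.6 in ESX1 (mean ± SD, n = 3). MNT was last in each, at 0.504 ± 0.179, 0.977 ± 0.376 and 0.976 ± 0.231. Places between them changed. In WT the order after MYCN was MYCL (6.80 ± 3.81), MAX (5.72 ± 0.689), MYC (3.77 ± 1.02), MXD4 (2.80 ± 0.379), MXI1 (2.43 ± 0.534), MXD3 (2.20 ± 0.205) and MXD1 (1.54 ± 0.717). From MYC to MXD1, and from MYCL to MAX, neighbours overlapped between libraries. In NC the order was MAX (5.76 ± 0.661), MYC (4.45 ± 0.451), MXD1 (3.30 ± 0.152), MXI1 (2.80 ± 0.0592), MYCL (2.73 ± 0.110), MXD4 (2.60 ± 0.410) and MXD3 (1.75 ± 0.425). MXI1 with MYCL, MYCL with MXD4, and MXD3 with MNT overlapped. In ESX1 it was MAX (6.89 ± 1.01), MYC (5.67 ± 1.43), MXD1 (4.66 ± 1.09), MXI1 (3.67 ± 0.660), MXD4 (2.99 ± 0.924), MYCL (2.55 ± 0.287) and MXD3 (1.54 ± 0.0624), with every neighbour from MAX to MYCL overlapping. MXD1 thus stood 8th in WT and 4th in both transfected groups, and MYCL 2nd in WT, 6th in NC and 7th in ESX1. The place of MXD3 is uncertain. With its length cut to the exon bases it shares with no other gene, its mean would be 3.70 in WT, 2.95 in NC and 2.59 in ESX1, which in WT is above MXD4 (2.83) and MXI1 (2.54) on the same footing.

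The summed FPKM of the MYC genes was 23.5 ± 5.39 in WT, 15.4 ± 1.37 in NC and 17.8 ± 3.31 in ESX1. MYCN made up 55.3% ± 2.49, 53.4% ± 0.902 and 53.8% ± 1.06. MYCL made up 27.6% ± 9.79 in WT, 17.8% ± 1.35 in NC and 14.5% ± 1.22 in ESX1, and MYC 17.1% ± 7.81, 28.9% ± 0.535 and 31.7% ± 2.01. Within WT the MYCL share ran from 17.3% in WT 1 to 36.8% in WT 3, so that WT 1 was near the NC libraries. On the opposing side, the sum over the MXD genes, MXI1 and MNT was 9.48 ± 0.638 in WT, 11.4 ± 0.0209 in NC and 13.8 ± 1.97 in ESX1, and the 3 groups did not overlap. Over unshared exon bases it was 11.3 ± 0.704, 13.0 ± 0.262 and 15.4 ± 2.01, with the groups still apart, NC reaching 13.3 and ESX1 starting at 13.8. MXD1 supplied 16.5% ± 7.80, 28.9% ± 1.31 and 33.4% ± 4.42 of it. These sums rest on gene lengths in the annotation and were not tested. Groups were apart in 22.6% of single genes tested in ESX1 against NC, 40.3% in ESX1 against WT and 37.6% in NC against WT. How often a sum of genes keeps all 3 groups apart was not counted, so the separation is no result about the network.

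**Figure D3:**
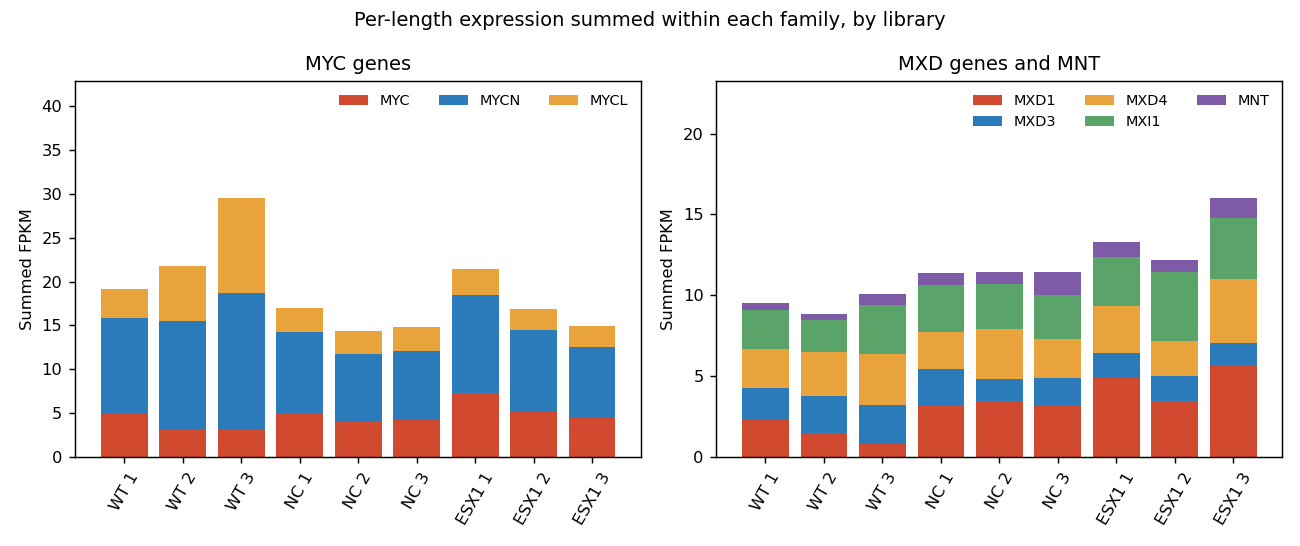
Stacked bars of FPKM by library, summed over MYC, MYCN and MYCL on the left and over MXD1, MXD3, MXD4, MXI1 and MNT on the right, from 0. The opposing genes sum to 8.83 to 10.1 FPKM in WT, 11.4 in each NC library and 12.2 to 16 in ESX1, and WT 3 has the tallest MYC bar at 29.5 FPKM.

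Genes that work with the network were followed in 7 lists of 77 genes in all. MLX, MLXIP, MLXIPL and MGA encode proteins of the parallel MLX network and a further MAX partner. None of these 4 was called or passed the p threshold in any comparison, nor did any at an unadjusted p of 0.05, by edgeR. DESeq2 and limma called none of them. MGA was at 380 ± 35.6 CPM in WT, 356 ± 14.9 in NC and 358 ± 21.6 in ESX1, and MLXIP at 74.5 ± 7.26, 91.2 ± 12.1 and 75.6 ± 14.9.

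Of 9 genes of the SIN3 corepressor that MXD proteins recruit, none was called. Without a minimum fold, 5 were lower in ESX1 against WT and none higher, and 4 were lower and 1 higher in NC against WT, while 0 passed in ESX1 against NC by edgeR (1 at an unadjusted p below 0.05). Over all genes tested, 15.8% were lower and 12.9% higher in ESX1 against WT, and 10.3% and 6.82% in NC against WT. The medians were -0.35 in ESX1 against WT and -0.35 in NC against WT. RBBP7, a histone-binding chaperone, fell from 216 ± 23.8 CPM in WT to 160 ± 3.98 in NC and 131 ± 10.7 in ESX1 (log2 fold change in ESX1 against WT -0.72, adjusted p = 0.000174). RBBP4, its paralogue, fell from 253 ± 14.3 to 192 ± 9.02 and 197 ± 16.5 (-0.36, adjusted p = 0.0172). Of 11 MYC cofactors, among them TRRAP, the scaffold of histone acetyltransferase complexes, and HCFC1, a chromatin adaptor, none was called either (2 at an unadjusted p below 0.05 in ESX1 against NC). The share of all genes tested at that unadjusted p was not counted. DESeq2 and limma also called none of the genes of these lists. With no minimum fold 1 was higher and 2 lower in ESX1 against WT, and 2 and 2 in NC against WT, beside 28.8% and 17.1% of all genes tested in either direction, so that 3 of 11 in ESX1 was near the background. TRRAP and HCFC1, the most abundant, passed in no comparison, with log2 fold changes between -0.25 and 0.30.

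Among 10 genes that set how long MYC protein lasts, USP28 fell in every comparison. USP28 encodes a deubiquitinase that removes the mark placed on MYC by FBXW7. It was at 368, 379 and 389 CPM in WT, 242, 251 and 269 in NC, and 138, 179 and 139 in ESX1. The 3 groups were fully apart. The log2 fold change was -1.31 in ESX1 against WT (SE 0.118, adjusted p = 5.4e-07), the one gene of this list called, -0.58 in NC against WT (adjusted p = 0.00262) and -0.74 in ESX1 against NC (SE 0.117, adjusted p = 0.00116). HUWE1, a ubiquitin ligase that also acts on MYC, was at 1219 ± 48.4 CPM in WT, 1144 ± 48.0 in NC and 945 ± 58.2 in ESX1 and fell in ESX1 against WT by 0.37 on the log2 scale (adjusted p = 0.00477). In all, 6 of 10 were lower and 1 higher past the p threshold in ESX1 against WT, 3 lower and 1 higher in NC against WT, and 1 lower in ESX1 against NC. The shares of all genes tested were 15.8% lower and 12.9% higher, 10.3% and 6.82%, and 2.37% lower.

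The 35 genes known to be induced by MYC had a median log2 fold change of -0.09 in ESX1 against NC. None was called there by edgeR, DESeq2 or limma, and 9 had an unadjusted p below 0.05 by edgeR, a share not counted over all genes tested. Past the adjusted p CCND2 was lower (-0.60) and TFB2M higher (0.56), beside 2.37% lower and 1.88% higher of all genes tested. In ESX1 cells 14 were lower and 2 higher past the p threshold (median -0.30), and in NC cells 13 were lower and 1 higher (median -0.21), beside 15.8% and 10.3% of all genes tested that were lower. At 2-fold, CCND2 and PTMA were called lower and SLC7A5 higher in ESX1 against WT, and CCND2, PTMA and HSPE1 lower in NC against WT. These 3 of 35 stand beside 11.5% of all genes called in ESX1 against WT and 5.27% in NC against WT. CCND2, cyclin D2, fell from 1560 ± 265 CPM in WT to 751 ± 19.4 in NC and 494 ± 40.1 in ESX1, and the groups did not overlap. Its log2 fold change in NC against WT was under 2-fold without WT 3 (-0.91) and with upper-quartile factors (-0.96). PTMA, prothymosin alpha, fell from 1546 ± 364 to 697 ± 44.0 and 503 ± 87.4. HSPE1, a mitochondrial chaperonin, was at 66.2 ± 7.36, 28.6 ± 2.62 and 38.8 ± 1.70. HSPD1 and NPM1 were the most abundant. HSPD1, the partner of HSPE1, stayed within 0.03 of 0 on the log2 scale in all comparisons, and NPM1, a nucleolar protein, fell by 0.67 in ESX1 and by 0.72 in NC against WT. PTMA, HSPE1, HSPD1 and NPM1 have processed pseudogenes whose reads the counting could split from theirs, so their values are uncertain.

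SLC7A5, the large neutral amino acid transporter, went the other way. It was at 120, 97.1 and 116 CPM in WT, 199, 175 and 187 in NC, and 334, 190 and 294 in ESX1. All transfected libraries were above WT, and ESX1 2 lay within the NC range. SLC7A5 rose in ESX1 against WT (log2 fold change 1.30, SE 0.163, adjusted p = 1.71e-05) and, below 2-fold, in NC against WT (0.75, adjusted p = 0.00412). In ESX1 against NC it was 0.54 (adjusted p = 0.0665) with all libraries and 0.75 (adjusted p = 0.00159) without ESX1 2. Its stretch before the start site (chr16:87869508-87869757, minus strand, GRCh38.p14, RefSeq) is shown because it is the gene of the list called higher and holds CACGTG, in capitals, 130 bases before the start.
SLC7A5: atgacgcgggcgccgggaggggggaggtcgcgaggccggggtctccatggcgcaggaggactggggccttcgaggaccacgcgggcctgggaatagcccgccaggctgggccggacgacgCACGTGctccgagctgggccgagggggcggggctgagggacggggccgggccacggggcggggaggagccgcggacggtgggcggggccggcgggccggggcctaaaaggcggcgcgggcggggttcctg

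CACGTG was found in 16 of the 37 windows of the induced genes (43.2%), with 30 of the 35 genes matched, and in 0 of the 8 windows of the repressed ones. The induced genes were listed as known MYC targets, so this share describes the list and is no result of these libraries.

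Of 6 genes known to be repressed by MYC, 4 rose and 1 fell in ESX1 against WT, beside backgrounds of 6.78% called higher and 4.77% called lower. CDKN1A, GADD45A and CDKN2B, which restrain the cell cycle, and NDRG2 were higher, and NDRG1 was lower. In NC against WT CDKN1A, GADD45A and CDKN2B were higher and NDRG1 lower, beside 3.12% and 2.15%. The medians were 0.56 in ESX1 against NC, 1.81 in ESX1 against WT and 1.25 in NC against WT. GADD45A, a stress-induced gene, was at 6.33, 3.50 and 4.91 CPM in WT, 19.9, 21.4 and 19.6 in NC, and 47.4, 22.6 and 39.3 in ESX1. Here too ESX1 2 lay nearest NC. Its log2 fold change was 2.86 in ESX1 against WT (SE 0.262, adjusted p = 6.2e-07), 2.03 in NC against WT and 0.84 in ESX1 against NC (SE 0.229, adjusted p = 0.0463). The last was 1.10 (adjusted p = 0.00235), past 2-fold, without ESX1 2, and lost the p threshold without any one of the other ESX1 or NC libraries, at 0.59 to 0.89.

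CDKN1A, the p21 inhibitor of cyclin-dependent kinases, was at 10.3 ± 2.24 CPM in WT, 27.1 ± 2.71 in NC and 40.6 ± 10.3 in ESX1. Its log2 fold change was 1.97 in ESX1 against WT (adjusted p = 2.19e-06) and 0.59 in ESX1 against NC (adjusted p = 0.0979), or 0.72 without ESX1 2 (adjusted p = 0.0423). CDKN2B was low in WT, at 0.218, 1.6 and 0.104 CPM, so that its fold change is imprecise (3.04, SE 0.568, in ESX1 against WT). In NC against WT CDKN2B passed at 2.25 (adjusted p = 0.0131) but not without WT 3 (1.71, 0.0542). NDRG1, a gene that responds to low oxygen as well as to MYC, fell from 78.3 ± 22.7 CPM in WT to 33.5 ± 3.39 in NC and 25.2 ± 2.65 in ESX1. NDRG2 was at 1.38 ± 0.541, 2.99 ± 1.06 and 4.25 ± 0.959 CPM. With limma, NDRG2 in ESX1 against WT was at 0.80 and CDKN2B in NC against WT at 0.92, both under 2-fold. CDKN1B, the p27 inhibitor, was at 34.3 ± 2.66, 34.8 ± 5.63 and 36.5 ± 1.98 and passed no test.

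TXNIP and ARRDC4, the glucose-responsive targets of MLX with MLXIP, were both called higher in ESX1 against WT (log2 fold changes 1.20 and 1.40, adjusted p = 0.0344 and 0.0225) and in no other comparison, beside a background of 6.78% called higher. TXNIP was at 4.26, 11.4 and 11.5 CPM in WT, 15.5, 15.6 and 16 in NC, and 8.82, 16.6 and 38.2 in ESX1. ESX1 3 held the highest value of either gene. Without it TXNIP was at 0.53 (adjusted p = 0.302) and ARRDC4 at 0.85 (adjusted p = 0.165) against WT. TXNIP also lost the call without WT 1 (0.84, adjusted p = 0.123), and ARRDC4 without WT 2 (1.04, 0.0899). The TXNIP call was also lost with DESeq2 (1.24, adjusted p = 0.104), with only the 6 libraries compared (1.22, 0.0544) and with limma (0.87, under 2-fold), and the ARRDC4 call with limma (0.89, under 2-fold). ARRDC4 was not tested where at least 10 counts in every library were required.

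Against both controls in the same direction, 0 of the 9 network genes and 0 of the 77 listed genes were called. With no minimum fold, USP28 and CCND2 were lower and GADD45A higher against both, and without ESX1 2 GADD45A was called against both. The share of all genes tested that passed against both was not counted. With all libraries it can be at most the share in ESX1 against NC, 1.78% called and 4.25% with no minimum fold. These 3 comparisons share libraries in pairs, so a gene's values in them are not independent.

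**Figure D4:**
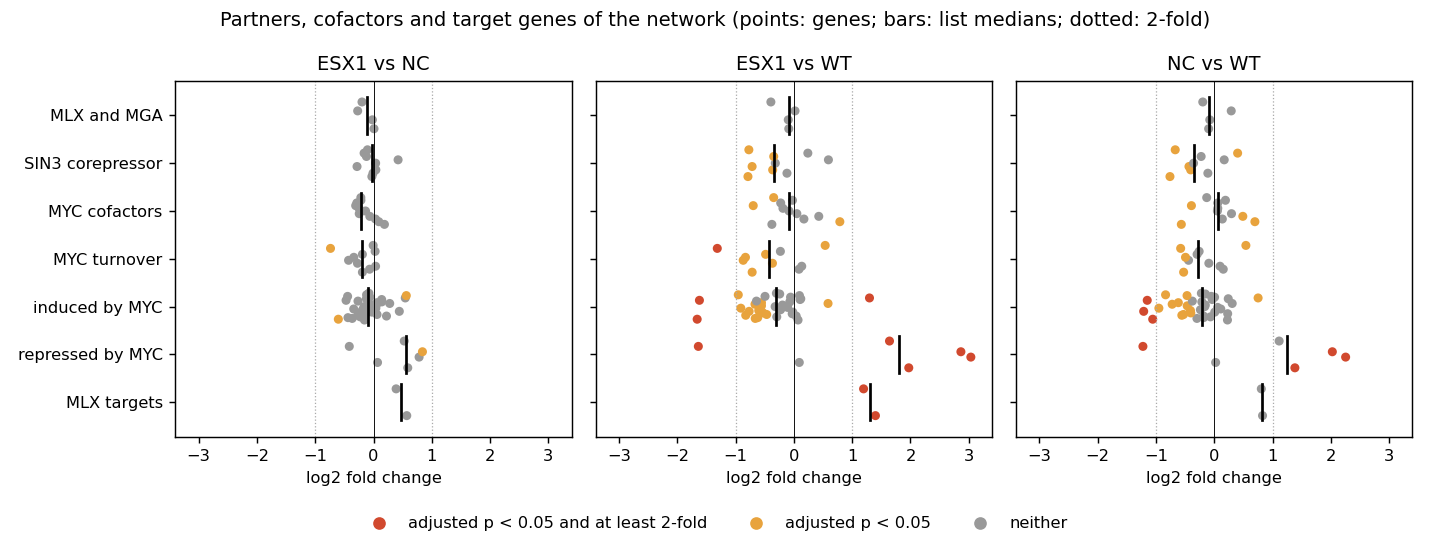
log2 fold change of each of the 77 listed genes (points, by list) and list medians (bars) in ESX1 against NC, ESX1 against WT and NC against WT, with dotted lines at 2-fold. No point passes both thresholds in ESX1 against NC, and the repressed list has medians of 0.56, 1.81 and 1.25.

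Over the 9 libraries, the genes whose log2 CPM followed MYCN most closely were RPL13A (Pearson r = 0.979), GRHPR (0.974) and RPL9 (0.974), and those closest to MXD1 were RP11-7K24.3 (0.992), SDC1 (0.987) and AGO3 (0.986). The libraries fall into groups, and these are the highest values among 18452 genes, so the coefficients are a description of likeness with n = 9 and no test.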

How the data were processed

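RNA from 9 TCam-2 libraries was sequenced as paired ends after ribosomal RNA depletion with a stranded kit. Per the submitters' processing notes and the study's methods, the authors aligned reads with HISAT2 2.0.5 to GRCh38 and counted them per gene with featureCounts. The header of the deposited counts names featureCounts 1.5.2, a GENCODE v26 annotation and counting without strand, while the notes name version 1.6.5. The authors also deposited log2 expression values normalized with DESeq2. The transformation behind them is not given in the sources used here, and equal counts in a library had equal values.

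The deposited counts were tested with edgeR 4.0.16 in R 4.3.3 (filterByExpr, TMM factors, glmQLFit and glmQLFTest) on all 9 libraries with 1 mean per group. P-values were adjusted by the Benjamini-Hochberg method over the 18452 genes tested, and a call needed both a 2-fold difference and an adjusted p under 0.05. The log2 CPM behind the correlations used a prior count of 2. Depth ran from 5212804 to 10644408 counts per library, replicates correlated at 0.967 to 0.980 on the log scale, and intervals are 95% confidence intervals from the fit. The fit was tested on simulated data.

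The members and gene lists were chosen with earlier results of these data known. Besides members and ESX1, the genes named were those of each list called in any comparison and the 2 most abundant of each, the 3 genes most like the leading MYC and MXD genes, and genes sharing exons with a member. TFB2M was named after its values were seen. Alternatives were DESeq2 1.42.0, limma 3.58.1 on the authors' log2 values, other scaling factors and filters, only the 6 libraries compared, no mitochondrial genes, a replicate block, no minimum fold, and leaving out each library. FPKM over unshared exon bases was added after seeing the data. Replicate numbers come from the sample titles and were not used to pair the libraries, except in the replicate block.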

Additional observations from a re-analysis of the deposited data

How the results depend on the processing

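Between ESX1 and NC, 0 network genes were called under every alternative. Against WT, 2 were called in ESX1 cells (4 with no minimum fold, 2 to 3 with 1 library left out) and 2 in NC cells (4 with no minimum fold, 0 with limma on the authors' log2 values, where MYCL was at -0.99 and MXD1 at 0.94, and 1 to 3 with 1 library left out, 1 being without WT 3). MNT joined the calls in both with upper-quartile factors, in ESX1 also without ESX1 2 and in NC also without NC 2. Without WT 3, MNT and MXD1 were called in ESX1 and MNT in NC, MYCL in neither. Of the listed genes, 0 were called in ESX1 against NC (4 with no minimum fold, 0 to 1 with 1 library left out), 11 in ESX1 against WT (38, and 9 to 15), 7 in NC against WT (31, and 6 to 8) and 0 against both controls (3, and 0 to 1). With limma 8 were called in ESX1 (NDRG2, ARRDC4 and TXNIP lost) and 6 in NC (CDKN2B lost), with at least 10 counts in every library 8 and 6 (CDKN2B, NDRG2 and ARRDC4 untested), with upper-quartile factors 11 and 6 (CCND2 lost), and with DESeq2 or only the 6 libraries compared 10 and 7 (TXNIP lost). Without ESX1 2, the 15 included KIAA1524, NME1 and TFRC, and GADD45A was the 1 against NC. The cause was not tested. Values that changed sign passed no threshold. With 1 library left out, log2 fold changes ran for MAX in NC against WT from -0.084 to 0.11 (-0.0020 without NC 1, -0.045 without NC 2), for MXD3 in ESX1 against NC from -0.32 to 0.018, for MXD4 from -0.035 to 0.39 in ESX1 against NC, -0.13 to 0.28 in ESX1 against WT (-0.015 without WT 1) and -0.22 to 0.0039 in NC against WT, for MNT in ESX1 against NC from -0.19 to 0.35 (0.0022 without ESX1 1, 0.12 without ESX1 2), for ESX1 in NC against WT from -0.20 to 0.0060 and for TXNIP in ESX1 against NC from -0.29 to 0.77. MNT in ESX1 against NC was 0.024 with limma. Replicate numbers were not used to pair the libraries in the main fit. Same-numbered libraries deviated together at correlations of -0.030 to 0.193, which cannot show whether they were handled in parallel. A replicate block left the network calls at 0, 2 and 2 and the list calls at 0, 11 and 7, moved MNT in ESX1 against NC to 0.037, and brought MYC in ESX1 against WT past the threshold (0.59, adjusted p = 0.0204). Of the members' other fold changes under alternatives, 444 kept direction and side of the threshold, 11 came past it and 18 lost it. Depth limits low genes such as MNT and CDKN2B, whose intervals are wide.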
